A study of Mus musculus with 6 samples.

Results

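Hepatic stellate cells of the tumour region were compared with those of the non-tumour region in livers of mice on a high-fat diet, with the tumour and the non-tumour library matched by isolation temperature. The comparison uses 4 of the 6 libraries of the series, chosen by their labels: tumour region at 37 and at 6 degrees, and non-tumour region at 37 and at 6 degrees. All 6 libraries came from wild type C57BL/6 mice aged 35 weeks, and the 2 not compared here were made at the same temperatures from mice on a normal diet. The livers were perfused, and cells that stained for CD49a and lacked CD31 and CD45.2 were sorted, a gate that leaves out cells with either antigen on their surface (CD31 marks endothelium and CD45.2 leukocytes). The study was designed to examine what warm incubation does to the transcriptome of these cells. Genes that differed between regions at both temperatures are therefore given apart from genes that differed after warm isolation alone.

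Each combination of region and temperature had 1 library, and the labels do not say how many animals a library held or whether the tumour and the non-tumour region came from the same livers. A single pair of libraries therefore carries no error of its own. The p-values of the region difference rest on how far 6 libraries depart from additive effects of source and temperature, which may be technical. Those of its change with temperature rest on less, as given with that test. The sources used here do not give the diet's composition, the origin of the tumours or the perfusion enzymes.

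As background, hepatic stellate cells wrap the liver sinusoids and store vitamin A. After injury they become contractile, matrix-producing myofibroblasts, and in tumour-bearing liver such cells form part of the stroma. Macrophages, including the resident Kupffer cells, lie beside them and carry CD45 and, when they present antigen, MHC class II molecules. Immediate early genes are transcription factors and feedback regulators whose transcription starts minutes after a stimulus, and cold isolation is used to slow such transcription while tissue is taken apart.

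Levels are given in FPKM (fragments per kilobase, a level that allows for transcript length and library size), and differences are on the log2(FPKM + 1) scale, on which 1 is close to a 2-fold difference for well expressed genes and less than the ratio for weakly expressed ones. The FPKM steps of weak genes gave an estimated 1.81e+07 to 2.55e+07 fragments per library, so that 1 fragment on 1 kb of transcript was worth 0.0392 to 0.0551 FPKM. Between 11056 and 11673 genes reached 1 FPKM. The markers were those of the label: 12 of 12 stellate markers reached 1 FPKM in each library and summed to 12300 to 21700 FPKM. Macrophage markers (11 genes) summed to 848 and 2060 FPKM in tumour libraries at 37 and 6 degrees, against 33.4 and 566 FPKM in non-tumour libraries and 44.2 and 488 FPKM on normal diet. The 7 sinusoidal endothelial markers summed to 301 and 1010 FPKM in tumour libraries, against 337 and 2030 FPKM in non-tumour libraries. Of the gate genes, Itga1 (CD49a) was at 179 and 172 FPKM in tumour libraries at 37 and 6 degrees, against 204 and 161 FPKM in non-tumour libraries. Ptprc (CD45) was at 5.44 and 16.5 FPKM in tumour libraries, against 0.375 and 2.73 FPKM in non-tumour libraries, so its message was present in sorted material in both regions and highest in the cold tumour library. In bulk libraries, fewer cells of a type and less RNA per cell cannot be told apart.

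At a log2 difference of 1 or more, most of the genes that differed at both temperatures or in the warm pair alone were higher in the tumour library. Small differences leaned the other way, with 3075 genes (26.6%) higher and 3759 (32.5%) lower in tumour in both pairs at any size. The median of all genes was -0.02 in each pair, and rescaling shifted it by 0.0254 or -0.0512 at 37 degrees. The direction of this lean at 37 degrees is therefore not fixed. Of 11558 genes tested, 203 (1.76%) were higher in the tumour library by at least 1 at both temperatures, and none (0%) was lower by that much at both, although 9 were lower at both and 65 lower in the warm pair alone with a pseudocount of 0.1 in place of 1. A further 194 genes (1.68%) were higher by at least 1 in the 37 degree pair and differed by less than 0.5 in the 6 degree pair, and 18 (0.156%) were lower in that way. The reverse pattern, a difference of at least 1 at 6 degrees alone, held for 36 genes higher (0.311%) and 49 lower (0.424%) in the tumour library. Another 9 genes differed by at least 1 in opposite directions. These classes are fold rules on single libraries, with no test behind them. Across genes, which are not independent replicates, the differences of the warm (37 degrees) and the cold (6 degrees) pair had a Pearson correlation of 0.48 and a Spearman correlation of 0.28.

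The limma test over both pairs, with temperature as a term, called 52 genes higher in the tumour region (0.45% of those tested) and 0 (0%) lower at a Benjamini-Hochberg adjusted p under 0.05. At an unadjusted p under 0.05 the test found 736 genes higher (6.37%) and 433 lower (3.75%), but 591 higher and 593 lower with quantile normalization. All 52 belong to the 203 genes higher at both temperatures. Genes were tested if they averaged at least 1 FPKM over all 6 libraries. Some genes weak outside tumour, such as Cnn1, Mmp13 and Ms4a7, reached that mean only through their tumour values. The same holds for Higd1b, Pdlim3, Ly6c1, Aldh1a2, Ccr2, Nkg7, Chil3 and Il6. The calls are close to the limit of the design: their number was 0 without the 37 degree tumour library, without the 37 degree non-tumour library or without either normal diet library, 4 without the 6 degree non-tumour library (none of them among the 52), and 162 higher and 3 lower without the 6 degree tumour library. A separate limma test asked whether the region difference itself changed with temperature. It called 7 genes (0.0606%) with a larger difference at 37 degrees and 0 (0%) with a smaller one, with 431 larger (3.73%) and 105 smaller (0.908%) at an unadjusted p under 0.05.

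**Figure D1:**
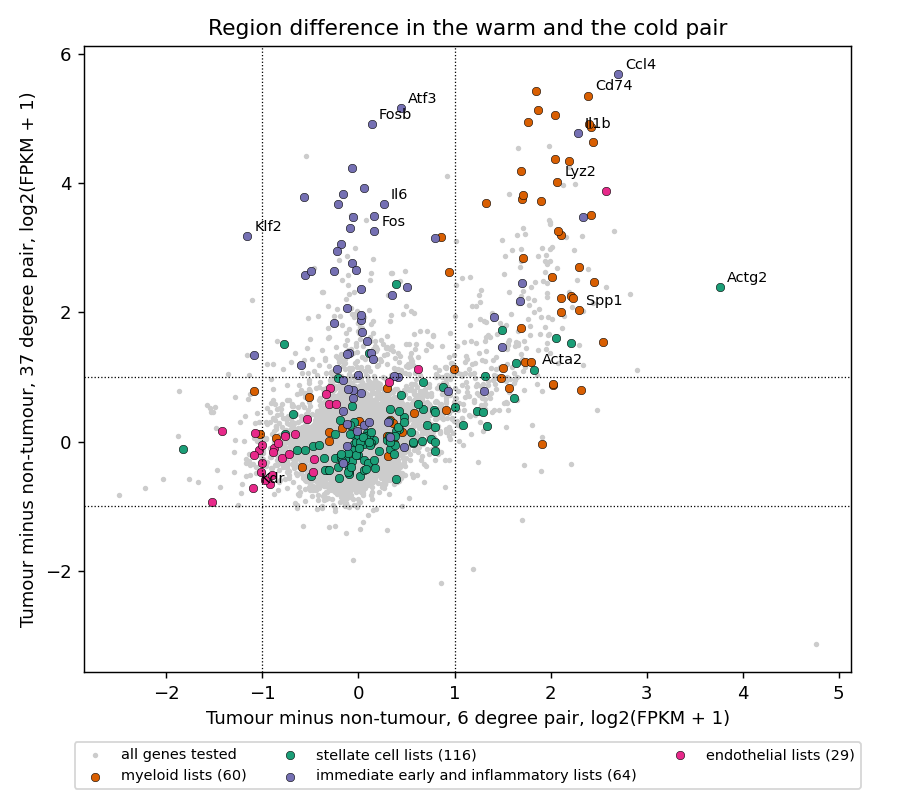
Tumour minus non-tumour difference of each gene tested, in the 6 degree pair (x axis) and the 37 degree pair (y axis), both on the log2(FPKM + 1) scale. Each point is 1 gene, drawn once even where it is on several lists, coloured by list, and the dotted lines mark differences of 1 in size. Myeloid genes such as Cd74 and Lyz2 lie at the upper right, high in both pairs, while Atf3, Fosb and Fos lie at the top near 0 on the x axis.

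Genes of myeloid cells made up the largest named group among those higher at both temperatures. Of 60 tested genes on the macrophage, lipid-associated macrophage, monocyte, neutrophil and dendritic cell lists, 33 were higher by at least 1 in both pairs and 9 passed the limma test, against 203 and 52 of all 11558 genes. None of the 60 was in the 37 degree class. Their median difference was 1.88 at 37 degrees and 1.72 at 6 degrees, where the medians of all genes were -0.02 and -0.02. These lists, like the others below, were written with earlier results of these libraries known, so their counts describe the libraries and are not independent evidence.

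Most tissue macrophage genes were higher in the tumour library by at least 1 in both pairs. The macrophage and Kupffer cell list had 21 tested genes, of which 16 were higher at both temperatures and 4 passed (Ptprc, Laptm5, Mpeg1 and Fcgr1). The other 5, Clec4f, Vsig4, Timd4, Mrc1 and Mertk, entered no fold class, and the list's cold differences reached down to -0.86. Clec4f was at 30.07 FPKM (tumour) and 2.455 FPKM (non-tumour) in the warm pair, and 85.05 FPKM (tumour) and 46.57 FPKM (non-tumour) in the cold pair. Lyz2, the lysozyme of macrophages and granulocytes (GRCm38 chr10:117277331-117282321), was at 285 FPKM (tumour) and 16.6 FPKM (non-tumour) in the warm pair, and 857 FPKM (tumour) and 204 FPKM (non-tumour) in the cold pair. Csf1r, the receptor for the macrophage growth factor CSF1, was at 18.8 FPKM in the tumour library against 0.479 FPKM in the non-tumour library at 37 degrees, and 70.3 FPKM in the tumour library against 20.9 FPKM in the non-tumour library at 6 degrees. The tumour library was above its partner in both pairs for both genes, but for Csf1r the warm tumour library was below the cold non-tumour library, so the regions overlapped when temperature was ignored. The mean difference over both pairs was 3.04 ± 0.48 for Lyz2 and 2.72 ± 0.46 for Csf1r (SE), with adjusted p of 0.0846 and 0.0998 in limma.

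The genes of complement C1q, made by macrophages, had larger differences in the warm pair than in the cold one. C1qa was at 67.5 FPKM (tumour) and 1.23 FPKM (non-tumour) in the warm pair, and 115 FPKM (tumour) and 33.2 FPKM (non-tumour) in the cold pair. C1qb differed by 5.13 in the warm and 1.86 in the cold pair, and C1qc by 5.42 and 1.85. All 3 genes stood higher in the cold than in the warm library of each region. None of the 3 passed the test over both pairs (adjusted p 0.171, 0.173 and 0.195).

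Several leukocyte genes passed the test. Ptprc differed by 2.23 in the warm and by 2.23 in the cold pair, with a mean of 2.23 ± 0.19 (SE) and an adjusted p of 0.0383. Ms4a7, a four-span membrane protein of macrophages, had 9.04 FPKM in the tumour library against 0.0474 FPKM in the non-tumour library at 37 degrees, and 18.3 FPKM in the tumour library against 2.06 FPKM in the non-tumour library at 6 degrees. It had the largest difference among the called genes, 2.96 ± 0.20 (adjusted p 0.0383). On normal diet Ms4a7 was at 0 and 1.25 FPKM at 37 and 6 degrees, and it was tested only because of its tumour values. Coro1a, a leukocyte actin regulator, differed by 2.40 in the warm and 2.58 in the cold pair, and Ptpn6, the phosphatase SHP-1, by 2.67 and 2.39 (adjusted p 0.043 and 0.0383). Laptm5, Pld4, Cd48, Clec7a and Clec4a3, also of leukocytes, passed with larger differences in the warm than in the cold pair (3.20 against 2.11 for Laptm5) and mean differences of 2.65, 2.66, 2.48, 2.50 and 2.75. Of the 52 called genes 37 are on no list, and the next 3 were picked from these after their values were seen. Spi1, the myeloid transcription factor PU.1, was at 8.86 and 31.6 FPKM in the tumour libraries at 37 and 6 degrees, against 0.427 and 7.5 FPKM in the non-tumour libraries (adjusted p 0.0383). Cybb, the catalytic subunit of the phagocyte oxidase, was at 7.72 and 30.1 FPKM in the tumour libraries, against 0.422 and 7.07 FPKM in the non-tumour libraries (adjusted p 0.0383). Cd86, a costimulatory ligand of antigen-presenting cells, was at 4.24 and 9.25 FPKM in the tumour libraries, against 0.0686 and 1.63 FPKM in the non-tumour libraries (adjusted p 0.0383). All 3 were highest in the cold tumour library.

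The MHC class II genes, whose products present peptides to CD4 T cells, had the largest medians of the lists with at least 6 tested genes above the filter on low values. Of 8 tested genes on the dendritic cell and MHC class II list, 6 were higher at both temperatures, and the list medians were 4.18 at 37 degrees and 2.2 at 6 degrees. With the genes below the filter included, the 37 degree median was 0.375. H2-Ab1, the class II beta chain, was at 329.5 FPKM (tumour) and 10.3 FPKM (non-tumour) in the warm pair, and 729.8 FPKM (tumour) and 136 FPKM (non-tumour) in the cold pair. Cd74, the invariant chain that escorts class II molecules, was at 621 FPKM in the tumour library against 14.3 FPKM in the non-tumour library at 37 degrees, and 1205 FPKM in the tumour library against 229.5 FPKM in the non-tumour library at 6 degrees. Normal diet libraries were low for both genes, with 9.31 and 58.95 FPKM of H2-Ab1 and 15.2 and 113 FPKM of Cd74 at 37 and 6 degrees. Of the class II genes, H2-DMa, part of the peptide loading factor, passed (difference 2.28 ± 0.17, adjusted p 0.0383), while H2-Aa, H2-Ab1, H2-Eb1 and Cd74 had adjusted p of 0.0627, 0.0733, 0.078 and 0.102. Division of reads among the related H2 genes is uncertain. Defining dendritic cell markers were low, since Flt3, Xcr1, Clec9a, Cd209a and Siglech summed to 1.25 and 4.93 FPKM in tumour libraries at 37 and 6 degrees, against 0.762 and 2.07 FPKM in non-tumour libraries.

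Promoters of 3 class II genes are shown because each holds the same short element near its start. The sequences are the 200 bases before the start of each gene in RefSeq (GRCm38.p6), on the strand of the gene, and the capitals mark the Y box TGATTGG, the inverted CCAAT element of class II promoters. It begins 50, 61 and 63 bases before the start of H2-Aa (chr17:34287824-34288023, minus strand), H2-Eb1 (chr17:34305667-34305866, plus strand) and H2-DMb1 (chr17:34152991-34153190, plus strand).
H2-Aa: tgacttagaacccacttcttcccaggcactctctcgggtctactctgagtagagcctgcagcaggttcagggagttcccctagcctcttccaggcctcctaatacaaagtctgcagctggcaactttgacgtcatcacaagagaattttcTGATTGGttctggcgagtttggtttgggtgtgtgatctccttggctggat
H2-Eb1: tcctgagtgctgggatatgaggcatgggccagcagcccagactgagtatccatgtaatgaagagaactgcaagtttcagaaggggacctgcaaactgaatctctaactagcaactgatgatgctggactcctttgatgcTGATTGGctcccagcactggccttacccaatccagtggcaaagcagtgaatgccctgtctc
H2-DMb1: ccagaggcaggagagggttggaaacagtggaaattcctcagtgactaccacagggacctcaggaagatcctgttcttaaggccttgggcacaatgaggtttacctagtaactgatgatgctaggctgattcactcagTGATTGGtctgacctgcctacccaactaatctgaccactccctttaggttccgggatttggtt
The same letters, read on both strands of the 250 bases before the start, occurred in 11 of 147 genes higher at both temperatures that had a promoter entry (7.48%), against 11.3% of the 9279 tested genes with an entry. The element was thus held by the class II genes shown without being more frequent in the whole class. H2-Eb1 was at 91.4 FPKM (tumour) and 2.08 FPKM (non-tumour) in the warm pair, and 179 FPKM (tumour) and 33.1 FPKM (non-tumour) in the cold pair. H2-Aa was at 175 and 372 FPKM in the tumour libraries at 37 and 6 degrees, against 6.09 and 67.6 FPKM in the non-tumour libraries. H2-DMb1, part of the peptide loading factor, was at 15.5 and 48.8 FPKM in the tumour libraries, against 0.248 and 12.3 FPKM in the non-tumour libraries.

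Chemokine and interleukin genes of the inflammatory list also appeared among the genes higher at both temperatures. Ccl4, a chemokine that draws monocytes and T cells, had the largest difference of the class, with 62.5 FPKM in the tumour library against 0.238 FPKM in the non-tumour library at 37 degrees, and 28.4 FPKM in the tumour library against 3.52 FPKM in the non-tumour library at 6 degrees. Il1b, the inflammatory cytokine IL-1 beta, was at 30.2 FPKM (tumour) and 0.143 FPKM (non-tumour) in the warm pair, and 13.8 FPKM (tumour) and 2.03 FPKM (non-tumour) in the cold pair. Unlike the macrophage markers, both were higher in the warm than in the cold tumour library. Ccl3 and Cxcl2, chemokines for monocytes and for neutrophils, passed with differences of 2.90 ± 0.29 and 1.67 ± 0.18 (adjusted p 0.041 and 0.0435), and Ccl4 and Il1b did not (adjusted p 0.0873 and 0.159). Ccl8, a monocyte chemokine, differed by 2.45 and 1.70 (adjusted p 0.0874).

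Monocyte and neutrophil genes were mixed. The monocyte list had medians of 0.86 at 37 and 1.85 at 6 degrees and the neutrophil list of 0.91 and 0.89, and Hdc and Wfdc21 of the neutrophil list were lower in the cold tumour library (differences of -1.03 and -1.09). S100a8, a calcium-binding protein of neutrophils and monocytes, had 3.66 FPKM in the tumour library and was listed at 0 in the non-tumour library at 37 degrees, and had 33.6 FPKM in the tumour and 7.01 FPKM in the non-tumour library at 6 degrees. Its partner S100a9 was at 4.95 and 22.3 FPKM in the tumour libraries at 37 and 6 degrees, against 1.04 and 2.98 FPKM in the non-tumour libraries (adjusted p 0.482 and 0.0785). Ccr2, the receptor that brings monocytes out of the marrow, was at 0.995 and 5.91 FPKM in the tumour libraries, against 0.0787 and 0.697 FPKM in the non-tumour libraries, and did not reach the fold rule at 37 degrees. Trem2 and Gpnmb, membrane proteins of lipid-laden macrophages, differed by 1.24 and 0.87 in the warm and by 1.74 and 2.03 in the cold pair (adjusted p 0.0942 and 0.167). Mmp12, the macrophage elastase, passed with a difference of 2.46 ± 0.26 (adjusted p 0.043). Of the 10 monocyte genes tested 4 were higher at both temperatures, and of the 6 neutrophil genes 2. Lymphocyte markers (5 genes listed) summed to 0.489 to 8.34 FPKM over the 6 libraries.

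The temperature effect in the normal diet libraries, which the classes did not use, was negative for most of these genes. Over the 203 genes the median 37 minus 6 degree difference on normal diet was -0.92, against 0.02 over all genes, and 145 of them were lower at 37 degrees by at least 0.5, against 933 of all 11558 genes (8.07%). For the 33 myeloid genes of the class that median was -2.35, and for the 8 genes of the stellate lists it was -0.15. The cold tumour library was the highest of all 6 for 175 of the 203 genes and the warm tumour library for 22, against 1389 and 2233 of all 11558 genes. The class rule already puts each tumour library above its partner, so these counts follow from it in part. Macrophage marker sums moved the same way, since they were lower at 37 than at 6 degrees in each source, and their part in these values was not tested.

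Within the tumour region, 164 of the 203 genes were lower at 37 than at 6 degrees by at least 0.5, against 1231 of all 11558 genes (10.7%), and 39 were not. This limit was chosen after the values were seen, and 24 genes were not lower at all. The 39 held 1 of the 33 myeloid genes (Spp1, which is on a stellate list too), 5 of the 8 stellate genes and 5 of the 7 immediate early or inflammatory genes. They include Acta2, Spp1, S100a6, Lox and Aldh1a2 of the stellate lists, and Ccl3, Ccl4, Ccl8, Cxcl2 and Il1b of the inflammatory list. The other 3 stellate genes, Actg2, Cnn1 and Igf1, had 37 minus 6 degree differences of -1.15, -0.53 and -1.24 in the tumour region.

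**Figure D2:**
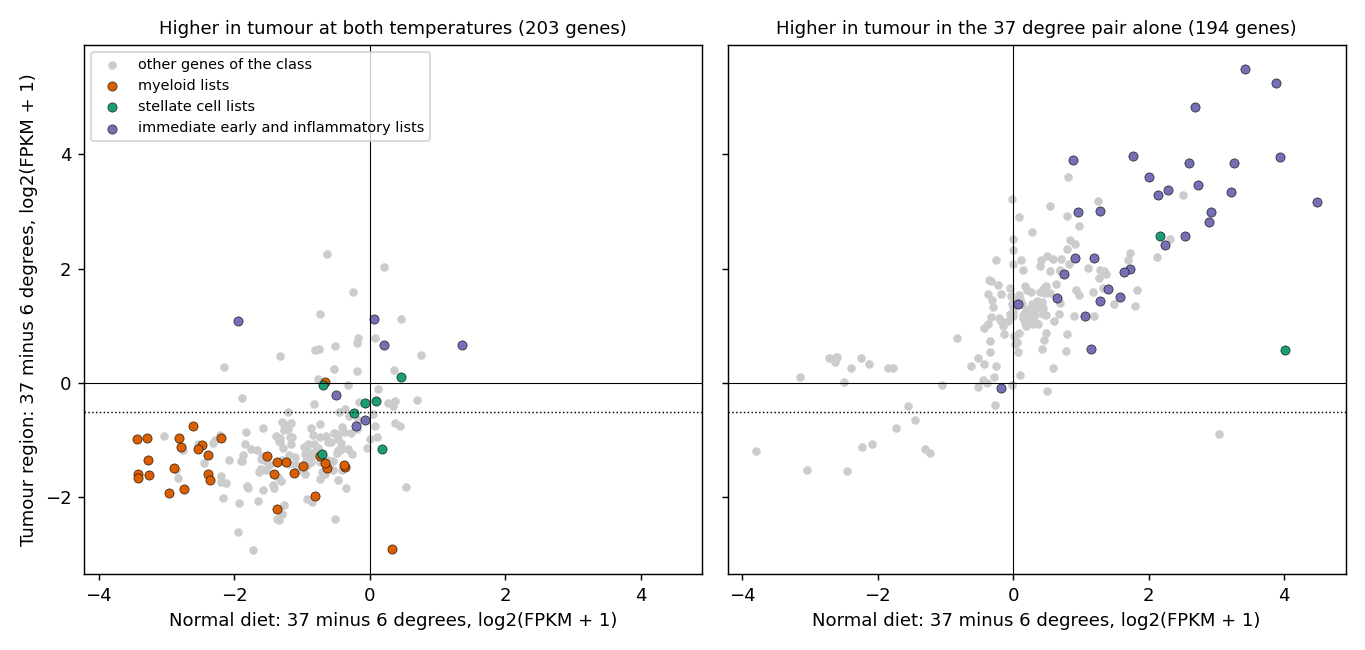
Temperature difference (37 minus 6 degrees) in normal diet libraries (x axis) against that in tumour libraries (y axis), on the log2(FPKM + 1) scale, for the 203 genes higher in tumour at both temperatures (left) and the 194 higher in the 37 degree pair alone (right). Each point is 1 gene and the dotted line marks -0.5. On the left most myeloid genes lie at the lower left, lower at 37 degrees in both sources, and on the right most immediate early and inflammatory genes lie at the upper right, higher at 37 degrees in both.

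Genes of the myofibroblast list, some of them contractile, were also among those higher at both temperatures. On this list 21 of 24 tested genes were higher in tumour in both pairs, against 26.6% of all genes. By at least 1 in both pairs, 6 of the 24 were higher, against 1.76% of all genes. The limma test called 3 of them (Cnn1, S100a6 and Spp1), against 0.45% of all genes. The list medians were 0.49 at 37 degrees and 0.65 at 6 degrees. Actg2, the enteric smooth muscle actin (GRCm38 chr6:83512905-83536265), was at 17.7 FPKM in the tumour library against 2.56 FPKM in the non-tumour library at 37 degrees, and 40.3 FPKM in the tumour library against 2.05 FPKM in the non-tumour library at 6 degrees, with 4.14 and 3.53 FPKM on normal diet. Acta2, the alpha smooth muscle actin that marks activated stellate cells (chr19:34241090-34255590), was at 266 FPKM (tumour) and 122 FPKM (non-tumour) in the warm pair, and 337 FPKM (tumour) and 93.97 FPKM (non-tumour) in the cold pair, with 107 and 112 FPKM on normal diet. For both actins each tumour library was above all 4 others, and the non-tumour libraries lay near normal diet. The differences were 3.08 ± 0.36 for Actg2 and 1.47 ± 0.17 for Acta2, with adjusted p of 0.0524 and 0.0546, just above the threshold of 0.05.

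Cnn1, the smooth muscle calponin, passed with 3.24 FPKM in the tumour library against 0.39 FPKM in the non-tumour library at 37 degrees, and 5.11 FPKM in the tumour library against 0.468 FPKM in the non-tumour library at 6 degrees (difference 1.83 ± 0.19, adjusted p 0.043). On normal diet Cnn1 was at 0.131 and 0.326 FPKM, and it was tested only because of its tumour values. S100a6, a calcium-binding protein of activated fibroblasts, was at 67.7 FPKM (tumour) and 22.9 FPKM (non-tumour) in the warm pair, and 84.9 FPKM (tumour) and 17.5 FPKM (non-tumour) in the cold pair, with 37.02 and 34.7 FPKM on normal diet (difference 1.87 ± 0.17, adjusted p 0.0383). Not every contractile gene followed, since Tagln differed by 0.50 in the warm and 0.68 in the cold pair (adjusted p 0.309) and Des, the intermediate filament of stellate cells, by 0.02 and 0.16. The vascular smooth muscle list had medians of 0.50 and 1.05 at 37 and 6 degrees, and 10 of its 11 tested genes were higher in tumour in both pairs, against 26.6% of all genes.

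Spp1, which encodes the secreted phosphoprotein osteopontin (GRCm38 chr5:104435118-104441050), passed with 22.8 FPKM in the tumour library against 4.84 FPKM in the non-tumour library at 37 degrees, and 22.5 FPKM in the tumour library against 3.79 FPKM in the non-tumour library at 6 degrees (difference 2.16 ± 0.23, adjusted p 0.043). Normal diet libraries held more of it than either region, 37.2 and 59.5 FPKM at 37 and 6 degrees, and the tumour region lay between the other sources. Srpx, an extracellular sushi repeat protein, was likewise low in the non-tumour region alone, with 4.9 and 4.02 FPKM in tumour libraries at 37 and 6 degrees, 0.877 and 0.452 FPKM in non-tumour libraries and 4.87 and 3.56 FPKM on normal diet (adjusted p 0.0383). Spp1 is on macrophage and bile duct lists as well, and Krt19, Krt7 and Epcam of bile ducts summed to at most 0.282 FPKM in any library.

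Wisp2, the matricellular protein now named Ccn5, was at 16.1 FPKM (tumour) and 2.52 FPKM (non-tumour) in the warm pair, and 21.1 FPKM (tumour) and 2.1 FPKM (non-tumour) in the cold pair (difference 2.56 ± 0.25, adjusted p 0.039). Gdf15, a stress-induced hormone of the TGF-beta family, was at 16.8 FPKM in the tumour library against 1.28 FPKM in the non-tumour library at 37 degrees, and 7.24 FPKM in the tumour library against 0.742 FPKM in the non-tumour library at 6 degrees (difference 2.60 ± 0.22, adjusted p 0.0383). Mmp13, a collagenase, passed with a difference of 2.29 ± 0.24 (adjusted p 0.043), at 3.98 and 7.36 FPKM in tumour libraries and 0.13 and 0.543 FPKM in non-tumour libraries. On normal diet Mmp13 was at 0.434 and 0.36 FPKM, and it too was tested only because of its tumour values. Both tumour libraries were above all non-tumour and normal diet libraries for Wisp2, Gdf15 and Mmp13.

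None of the 26 tested genes of the matrix list met the fold rule at both temperatures. A few genes of other extracellular proteins did so without passing the test, and those named here outside the naming rule were picked after their values were seen. Mgp, the matrix Gla protein, was at 54.2 FPKM (tumour) and 11.3 FPKM (non-tumour) in the warm pair, and 10.6 FPKM (tumour) and 3.84 FPKM (non-tumour) in the cold pair (adjusted p 0.478). Dpt, the collagen-binding dermatopontin, was at 40.1 and 22.9 FPKM in the tumour libraries at 37 and 6 degrees, against 18.99 and 10.4 FPKM in the non-tumour libraries (adjusted p 0.144). In the warm and the cold pair, Fmod, the proteoglycan fibromodulin, differed by 1.25 and 1.32, Col12a1 by 1.06 and 1.21, and Lox, the collagen cross-linking enzyme, by 1.02 and 1.31. Aldh1a2, which makes retinoic acid, differed by 1.22 and 1.64 (adjusted p 0.0581) and was the only gene of the retinoid list in the class. It was tested only because of its tumour values. The 3 genes just inside the limit of the class, Gm6377, Sdc1 and Rgcc, had a smaller difference of 1.01 to 1.02, and the 3 just outside, Chp2, Batf3 and Htra1, one of 0.995 to 0.999.

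**Figure D3:**
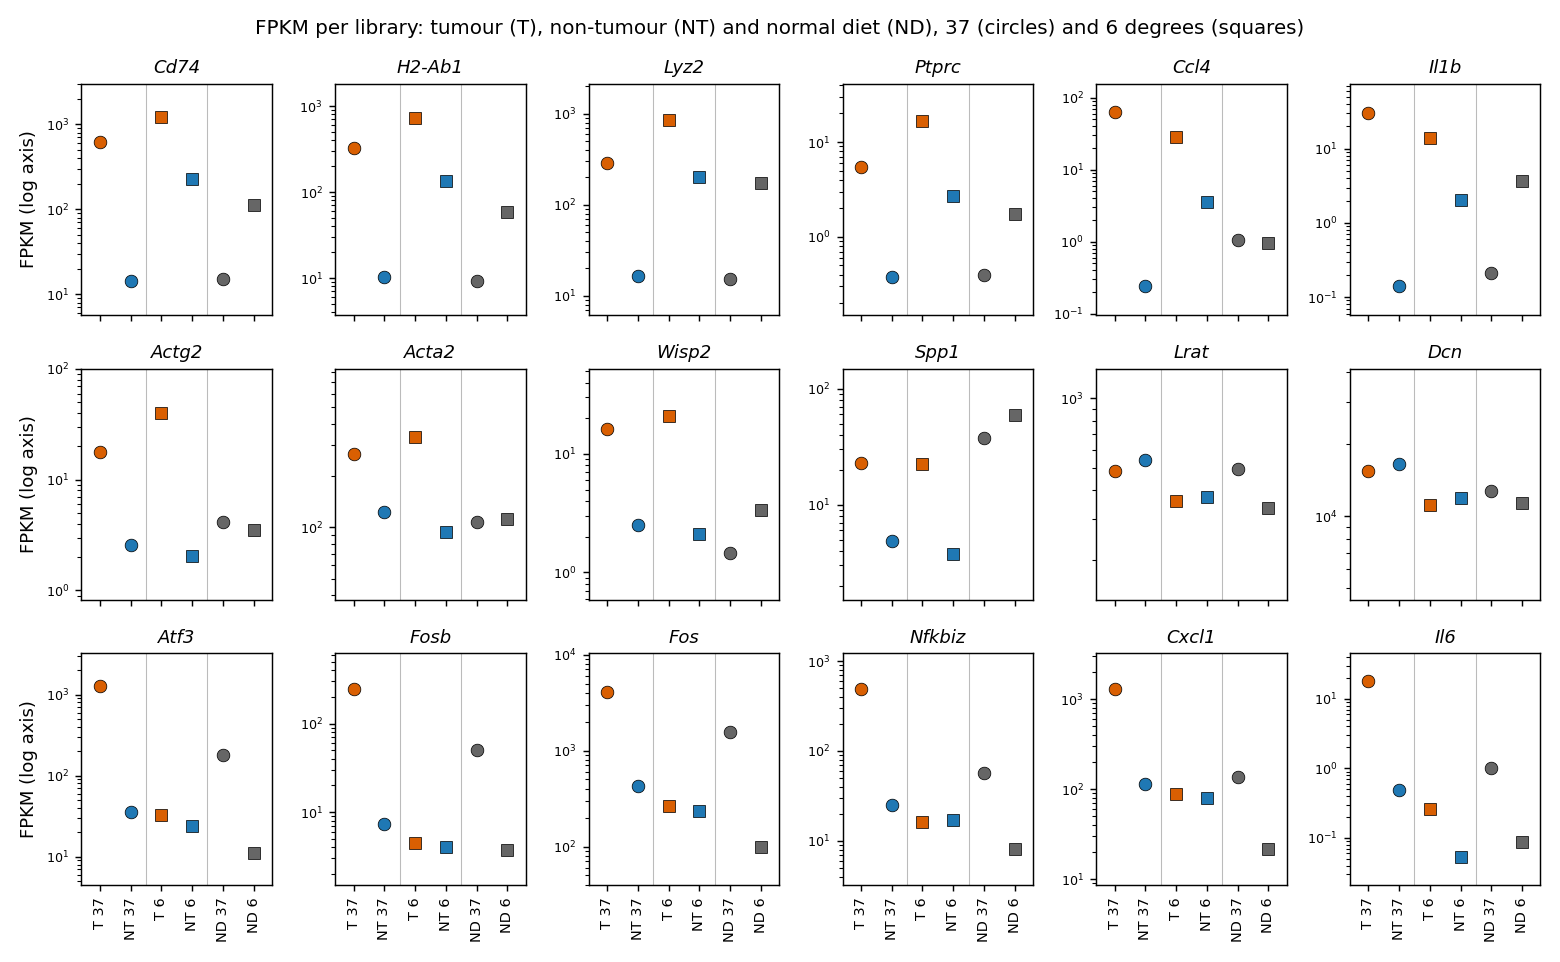
FPKM of 18 genes in each of the 6 libraries, on log axes, with tumour (T) left of non-tumour (NT) at each temperature and normal diet (ND) at the right; circles are 37 degrees and squares 6 degrees. The top row holds leukocyte genes, higher in the tumour than in the non-tumour library at both temperatures; the middle row contractile, matrix and stellate identity genes, of which Lrat and Dcn differ little between regions; and the bottom row genes whose warm tumour library stands far above the others.

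Stellate cell identity genes were not called in either direction. Of 27 tested genes on the quiescent stellate cell list none passed the test or entered a fold class, and 22 differed by less than 0.5 in both pairs, a share like that of all genes (81.5%). Their differences ran from -0.56 to 0.51 at 37 degrees and from -0.55 to 0.33 at 6 degrees, with medians of -0.26 and -0.08, and 20 of the 27 were lower in tumour in both pairs, against 32.5% of all genes. Lrat, which esterifies vitamin A for storage (chr3:82892579-82903973), was at 483 FPKM in the tumour library against 538 FPKM in the non-tumour library at 37 degrees, and 361 FPKM in the tumour library against 373 FPKM in the non-tumour library at 6 degrees. Reln, the secreted glycoprotein reelin, was at 255 and 234 FPKM in the tumour libraries at 37 and 6 degrees, against 352 and 251 FPKM in the non-tumour libraries. Both were slightly lower in the tumour library of each pair. Hgf, the hepatocyte growth factor, differed by -0.21 ± 0.09, Hand2, a stellate transcription factor, by -0.25 ± 0.11, and Cygb, the stellate globin, by 0.03 ± 0.09 over both pairs (adjusted p 0.501, 0.526 and 0.913).

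Fibrillar collagens differed more in the cold pair than in the warm one, while the proteoglycans Dcn and Lum were level in both. Col1a1, a chain of type I collagen, was at 299 FPKM (tumour) and 216 FPKM (non-tumour) in the warm pair, and 389 FPKM (tumour) and 165 FPKM (non-tumour) in the cold pair, with 293 and 389.5 FPKM on normal diet. It therefore met the rule for the cold pair alone, and normal diet libraries were as high as the tumour ones. Col3a1 differed by 0.03 at 37 degrees and 0.76 at 6 degrees, and Dcn, which binds collagen and TGF-beta, by -0.11 and -0.09. Lum was at 655 and 504 FPKM in the tumour libraries at 37 and 6 degrees, against 656 and 514 FPKM in the non-tumour libraries. Over the matrix list the medians were -0.00409 at 37 and 0.37 at 6 degrees, no gene of 26 passed, and 2 (Col1a1 and Col8a1) were in the cold class. Timp1, the inhibitor of matrix metalloproteinases, was at 211 and 154 FPKM in the tumour libraries at 37 and 6 degrees, against 152 and 115 FPKM in the non-tumour libraries (difference 0.45 ± 0.08, adjusted p 0.118). Among 30 growth factor and receptor genes Igf1 was the only one higher at both temperatures, with 4.33 FPKM in the tumour library against 0.604 FPKM in the non-tumour library at 37 degrees, and 11.6 FPKM in the tumour library against 3.45 FPKM in the non-tumour library at 6 degrees (adjusted p 0.0627).

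The genes higher in the tumour library after warm isolation alone were of another kind. Of the 194 genes, 33 were on the immediate early or the inflammatory list, 5 on the hepatocyte list, 2 on a stellate list and none on a myeloid list. The same lists held 64, 16, 118 and 60 of all 11558 genes. The median difference of the 194 genes was 1.47 at 37 degrees and -0.01 at 6 degrees. The warm tumour library was the highest of all 6 for 162 of them, against 2233 of all 11558 genes. At 37 degrees the tumour library stood 1.43 above normal diet in the median, and the non-tumour library at -0.23 relative to it. The non-tumour library was the lowest of the 3 warm libraries for 137 genes, against 3057 of all 11558. The class rule puts the warm tumour library above its partner, so the region medians and these counts follow from it in part. The median 37 minus 6 degree difference of the 194 genes was 1.38 in the tumour region, -0.0950 in the non-tumour region and 0.33 on normal diet, where 76 of them were higher and 26 lower at 37 degrees by at least 0.5, against 451 higher (3.9%) and 933 lower (8.07%) of all 11558 genes.

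Immediate early transcription factors led this class. Of 32 tested genes on the list 24 were in it, against 1.68% of all genes. The list medians were 2.46 at 37 degrees and -0.04 at 6 degrees. Atf3, a stress-induced repressor of the ATF family (chr1:191170296-191218039), was at 1285 FPKM (tumour) and 35.1 FPKM (non-tumour) in the warm pair, and 32.8 FPKM (tumour) and 23.9 FPKM (non-tumour) in the cold pair, with 179 and 11.2 FPKM on normal diet. Fosb, an AP-1 subunit (chr7:19302696-19310051), was at 248 FPKM in the tumour library against 7.28 FPKM in the non-tumour library at 37 degrees, and 4.53 FPKM in the tumour library against 4.03 FPKM in the non-tumour library at 6 degrees, with 50.4 and 3.77 FPKM on normal diet. In the cold the regions differed little, and in the warmth the order was tumour, normal diet, non-tumour. Fos, the founding AP-1 partner of Jun, was at 4114 FPKM (tumour) and 429 FPKM (non-tumour) in the warm pair, and 264 FPKM (tumour) and 236 FPKM (non-tumour) in the cold pair. Egr1, a growth response zinc finger factor, was at 2078 and 205 FPKM in the tumour libraries at 37 and 6 degrees, against 136 and 197 FPKM in the non-tumour libraries. For Egr1 the warm non-tumour library was below both cold libraries of the high-fat livers. Jun, Klf4 and Egr2 differed by 1.83, 3.83 and 3.67 in the warm and by -0.25, -0.16 and -0.21 in the cold pair.

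Cytokine and NF-kB feedback genes followed. On the inflammatory list 9 of 32 tested genes were in the 37 degree class and 6 in the class higher at both temperatures. Of all genes, 1.68% and 1.76% were in these classes. Il6, interleukin 6, was at 17.9 FPKM in the tumour library against 0.487 FPKM in the non-tumour library at 37 degrees, and 0.263 FPKM in the tumour library against 0.0528 FPKM in the non-tumour library at 6 degrees, the last of these about 1 fragment per kb. Il6 was tested only because of its warm tumour value. Cxcl1, a neutrophil chemokine, was at 1288 FPKM (tumour) and 113 FPKM (non-tumour) in the warm pair, and 88.7 FPKM (tumour) and 79.3 FPKM (non-tumour) in the cold pair. Nfkbiz, an inducible NF-kB cofactor, was at 487 FPKM in the tumour library against 24.9 FPKM in the non-tumour library at 37 degrees, and 16.2 FPKM in the tumour library against 17.01 FPKM in the non-tumour library at 6 degrees. Each of the 3 was highest in the warm tumour library and lay between the regions in warm normal diet cells, at 1.01, 137 and 57.5 FPKM. Ccl2, a monocyte chemokine, was less unequal, with 818 FPKM (tumour) and 472 FPKM (non-tumour) in the warm pair, and 394 FPKM (tumour) and 411 FPKM (non-tumour) in the cold pair. On the senescence list Cdkn1a, the cell-cycle inhibitor p21, was at 152 and 19.4 FPKM in the tumour libraries at 37 and 6 degrees, against 18.2 and 19.98 FPKM in the non-tumour libraries, while Cdkn2a was at most 0.323 FPKM in any library.

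Promoters of 3 of these cytokine genes are shown because each holds 1 match to a fixed NF-kB pattern near its start. The sequences are again the 200 bases before the RefSeq start (GRCm38.p6, gene strand). The capitals mark a match to the NF-kB element, written here as GGGA, any base, TT, any base, CC. Other forms of the element were not searched for and are not marked. They lie at chr5:30012914-30013113 for Il6 (plus strand), chr5:90891045-90891244 for Cxcl1 (plus strand) and chr5:92348890-92349089 for Cxcl10 (minus strand), and the element begins 44, 71 and 103 bases before the start.
Il6: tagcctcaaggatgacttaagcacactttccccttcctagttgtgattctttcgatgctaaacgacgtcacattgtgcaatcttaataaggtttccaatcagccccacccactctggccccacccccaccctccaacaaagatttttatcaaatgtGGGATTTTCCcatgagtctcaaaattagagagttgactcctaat
Cxcl1: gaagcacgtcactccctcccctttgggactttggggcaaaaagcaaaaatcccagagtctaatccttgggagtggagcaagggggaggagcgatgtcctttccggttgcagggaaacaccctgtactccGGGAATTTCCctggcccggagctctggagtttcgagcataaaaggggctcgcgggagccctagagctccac
Cxcl10: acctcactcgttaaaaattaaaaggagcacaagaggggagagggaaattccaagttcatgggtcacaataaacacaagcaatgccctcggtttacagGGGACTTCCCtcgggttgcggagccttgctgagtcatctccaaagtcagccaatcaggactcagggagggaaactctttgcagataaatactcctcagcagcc
Read on both strands of the 250 bases before the start, the NF-kB element occurred in 7 of the 154 genes of the 37 degree class with a promoter entry (4.55%), in 2 of the 147 higher at both temperatures (1.36%) and in 1.30% of all 9279. The cAMP response element TGACGTCA occurred in 6.49%, 1.36% and 3.06% of the same groups, the AP-1 element TGANTCA in 13.0%, 14.3% and 5.51%, and the serum response CArG box in 2.60%, 0.680% and 1.35%. The AP-1 and cAMP response elements begin and end with the same 3 letters, but neither holds the other. The shares are descriptions of these promoters, with few genes behind each.

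Other stress genes of the warm tumour library were fewer. On the interferon list 7 of 27 tested genes were in the 37 degree class, against 1.68% of all genes. The list medians were 0.06 at 37 and -0.04 at 6 degrees. Irf1, an interferon response factor, was at 808 FPKM in the tumour library against 114 FPKM in the non-tumour library at 37 degrees, and 93.5 FPKM in the tumour library against 108 FPKM in the non-tumour library at 6 degrees. Cxcl10, a T cell chemokine whose promoter is shown above, was at 888 and 111 FPKM in the tumour libraries, against 114 and 130.1 FPKM in the non-tumour libraries. Mt1 and Mt2, the metallothioneins, differed by 1.38 and 1.49 in the warm and by -0.09 and 0.04 in the cold pair. Dnajb1, an HSP40 co-chaperone, was at 130.5 and 23.5 FPKM in the tumour libraries at 37 and 6 degrees, against 23.5 and 25.5 FPKM in the non-tumour libraries. The inducible HSP70 genes were lower in the warm tumour library. Hspa1a was at 58.9 and 5.85 FPKM in the tumour libraries at 37 and 6 degrees, against 119 and 4.01 FPKM in the non-tumour libraries, and Hspa1b differed by -2.18 in the warm and 0.86 in the cold pair. Reads of Hspa1a and Hspa1b, near-identical copies, may be divided between them in either way.

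Hepatocyte transcripts were higher in the warm tumour library than in its partner. Alb, serum albumin, was at 26.6 FPKM (tumour) and 6.01 FPKM (non-tumour) in the warm pair, and 19.4 FPKM (tumour) and 13.7 FPKM (non-tumour) in the cold pair, with 5.39 and 29.3 FPKM on normal diet. Apoa1, the main protein of HDL, was at 34.99 and 25.4 FPKM in the tumour libraries at 37 and 6 degrees, against 5.43 and 18.5 FPKM in the non-tumour libraries, with 7.33 and 49.3 FPKM on normal diet. The 16 tested hepatocyte genes had medians of 1.12 at 37 degrees and -0.23 at 6 degrees, and none passed. In the cold pair Apoa2, Apoc3 and Fabp1 were lower in the tumour library (-0.89, -0.53 and -1.36), unlike Alb and Apoa1 (0.47 and 0.43). The 6 hepatocyte markers summed to 74.2 and 54.0 FPKM in the tumour libraries at 37 and 6 degrees, against 17.6 and 45.1 FPKM in the non-tumour libraries, and to 53.9 and 147 FPKM on normal diet. Of the sums on normal diet, Cyp2e1 alone made up 39.4 and 48.7 FPKM, and it was at most 6.45 FPKM in the high-fat libraries. The part of hepatocyte transcripts in the differences of the warm pair was not tested. Afp, made by hepatocyte tumours, was at most 0.231 FPKM (in the warm tumour library) and was under the filter on low values. Gpc3, another gene of liver tumours, was at 9.12 and 6.4 FPKM in the tumour libraries at 37 and 6 degrees, against 5.2 and 2.94 FPKM in the non-tumour libraries (adjusted p 0.255).

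The 18 genes lower in the tumour library after warm isolation alone were mostly at low levels, and 1 was on a list (Hspa1a). Snhg20, a long RNA that hosts small nucleolar RNA, was at 7.02 FPKM in the tumour library against 27.6 FPKM in the non-tumour library at 37 degrees, and 20.3 FPKM in the tumour library against 21.1 FPKM in the non-tumour library at 6 degrees. Neat1, the long RNA of nuclear paraspeckles, named after its values were seen, was at 5.48 and 17.2 FPKM in the tumour libraries at 37 and 6 degrees, against 14.4 and 16.6 FPKM in the non-tumour libraries. In both, the warm tumour library was the lowest of all 6. Tgoln2 and Btg3 differed by -1.32 and -1.30 in the warm and by -0.31 and -0.24 in the cold pair, and Pygo1, Gm6525 and Gm38431 were at most 3.26 FPKM in any library.

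The test of the change with temperature called fewer genes than the fold rule held. They were Fosb, Klf2, Nfkbiz, Klf4, Sertad1, Tyrobp and Ppp1r15a, each with a larger tumour minus non-tumour difference at 37 degrees, and 5 of these 7 were in the 37 degree class. The change was 4.77 ± 0.30 for Fosb, 4.31 ± 0.21 for Nfkbiz and 3.58 ± 0.22 for Sertad1 (SE, adjusted p 0.0408, 0.0368 and 0.0408 in limma). Sertad1, a transcriptional coregulator of the cell cycle, was at 299 and 31.9 FPKM in the tumour libraries at 37 and 6 degrees, against 25.4 and 33.8 FPKM in the non-tumour libraries. Ppp1r15a, the stress-induced phosphatase subunit GADD34, lies outside the naming rule and was at 853 and 69.1 FPKM in the tumour libraries, against 136 and 82.9 FPKM in the non-tumour libraries (change 2.90 ± 0.20, adjusted p 0.0468). For both genes the warm tumour library was the highest of all 6. Klf4, a zinc finger factor, changed by 3.99 ± 0.30 (adjusted p 0.0477). Klf2, a factor of quiescent endothelium and T cells, was at 518 FPKM (tumour) and 56.3 FPKM (non-tumour) in the warm pair, and 34.9 FPKM (tumour) and 79.04 FPKM (non-tumour) in the cold pair, so its difference had opposite signs (change 4.34 ± 0.33, adjusted p 0.0477). Tyrobp, the signalling adaptor DAP12 of myeloid cells, was called although it was higher in tumour at both temperatures, at 148 FPKM in the tumour library against 3.48 FPKM in the non-tumour library at 37 degrees, and 417 FPKM in the tumour library against 100.5 FPKM in the non-tumour library at 6 degrees (change 3.01 ± 0.21, adjusted p 0.0468). Atf3, Arc and Cxcl1 had changes of 4.71, 4.35 and 3.34 and did not pass (adjusted p 0.103, 0.0554 and 0.0558). For the other genes of the class, a difference in the warm pair and not in the cold pair is thus not shown to differ between temperatures. The test has 1 residual degree of freedom: how far the temperature effect on normal diet departs from the mean of those in both regions. The SE of a change rests on that departure, moderated over genes, and not on repeat libraries. No gene passed this test with median-ratio or quantile rescaling, without the filter on low values or without the intensity trend.

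The genes higher in the cold tumour library alone were 36 (0.311% of all genes tested), and 4 of the 118 tested stellate genes were among them. Myh11, the smooth muscle myosin, was at 21.04 FPKM (tumour) and 17.6 FPKM (non-tumour) in the warm pair, and 25.6 FPKM (tumour) and 9.54 FPKM (non-tumour) in the cold pair. Tgfb2, a ligand of the TGF-beta pathway, was at 20.9 and 21.5 FPKM in the tumour libraries at 37 and 6 degrees, against 17.2 and 9.59 FPKM in the non-tumour libraries. In both genes the cold non-tumour library was the low one of the 4. Nkg7, of cytotoxic lymphocytes, and Chil3, of monocytes and macrophages, reached 6.29 and 6.66 FPKM in the cold tumour library and were at most 1.04 FPKM in the other 3 libraries of high-fat livers. Both genes were tested only because of their cold tumour values.

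The 49 genes lower in the cold tumour library alone (0.424% of all genes tested) included 7 of 33 endothelial genes tested. Cdh13, an endothelial cadherin, was at 5.71 FPKM in the tumour library against 5.3 FPKM in the non-tumour library at 37 degrees, and 9.56 FPKM in the tumour library against 37.8 FPKM in the non-tumour library at 6 degrees. Flt4, the VEGF receptor 3 of sinusoids, was at 6.03 and 36.4 FPKM in the tumour libraries at 37 and 6 degrees, against 8.75 and 74.7 FPKM in the non-tumour libraries. The cold non-tumour library was the highest of all 6 for 42 of the 49 genes, against 2069 of all 11558, and the class rule puts it above its partner. On the sinusoidal endothelial list all 21 tested genes were lower in the cold pair, with differences of -1.10 to -0.46, and the medians were -0.89 at 6 degrees and -0.19 at 37 degrees. Over all genes the median was -0.02 in each pair, so a small negative difference was common. Pecam1, which encodes the gate antigen CD31, was at 10.7 and 53.04 FPKM in the tumour libraries at 37 and 6 degrees, against 9.99 and 90.6 FPKM in the non-tumour libraries, and none of the list passed the test. Cyp26b1, which breaks down retinoic acid, was the stellate-list gene of this class, at 0.43 FPKM in the tumour and 4.06 FPKM in the non-tumour library at 6 degrees, and at 0.398 FPKM in the tumour and 0.509 FPKM in the non-tumour library at 37 degrees. The sinusoidal endothelial marker sums were 1010 FPKM in the cold tumour and 2030 FPKM in the cold non-tumour library, and their part in these differences was not tested.

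The 9 genes with differences of at least 1 in opposite directions include Klf2 of the immediate early list, Il1a of the inflammatory list and Fabp1 of the hepatocyte list. Fabp1, the liver fatty acid-binding protein, was at 14.8 and 11.9 FPKM in the tumour libraries at 37 and 6 degrees, against 6.7 and 32.2 FPKM in the non-tumour libraries and 7.7 and 106 FPKM on normal diet. It was highest in the cold library of normal diet, as were the hepatocyte markers.

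Genes that came closest to a lower level in tumour at both temperatures were also endothelial in part. Vwf, von Willebrand factor, was at 0.64 FPKM (tumour) and 2.13 FPKM (non-tumour) in the warm pair, and 2.76 FPKM (tumour) and 9.81 FPKM (non-tumour) in the cold pair. Kdr, the VEGF receptor 2, was at 11.5 and 86.6 FPKM in the tumour libraries at 37 and 6 degrees, against 19.5 and 186 FPKM in the non-tumour libraries. Their mean differences were -1.23 ± 0.33 and -0.91 ± 0.43, with adjusted p of 0.319 and 0.551. Gpr182, a receptor of sinusoidal endothelium, had the lowest adjusted p of the sinusoidal endothelial list (0.0831, difference -0.78 ± 0.12).

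Most cell-cycle genes were slightly higher in tumour at both temperatures, and both genes shown here were highest on normal diet. Of 25 tested genes 21 were higher in tumour in both pairs, against 26.6% of all genes, with medians of 0.55 and 0.80, and none passed. Rrm2, the ribonucleotide reductase subunit, was at 2.34 FPKM in the tumour library against 0.649 FPKM in the non-tumour library at 37 degrees, and 6.4 FPKM in the tumour library against 2.51 FPKM in the non-tumour library at 6 degrees, with 16.4 and 20.6 FPKM on normal diet. Mki67, a marker of dividing cells, was at 0.609 and 2.34 FPKM in the tumour libraries at 37 and 6 degrees, against 0.242 and 0.837 FPKM in the non-tumour libraries, with 3.94 and 4.9 FPKM on normal diet. The secreted factors of senescence had medians of 0.78 at 37 and 0.21 at 6 degrees, and portal fibroblast and mesothelial genes 0.67 and 0.32. Several other lists lay nearer 0: glycolysis and hypoxia genes had medians of 0.12 and 0.04, lipid handling genes 0.07 and -0.10, Toll-like receptor genes 0.18 and -0.10, stress response genes of the ATF4 and unfolded protein lists 0.19 and -0.08, and ribosomal protein genes 0.21 and 0.08. Gsdmd, the pore-forming gasdermin D, was at 50.4 and 46.99 FPKM in the tumour libraries at 37 and 6 degrees, against 56.6 and 48.8 FPKM in the non-tumour libraries, and Il33, an alarmin cytokine, differed by 0.06 in the warm and 0.03 in the cold pair.

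**Figure D4:**
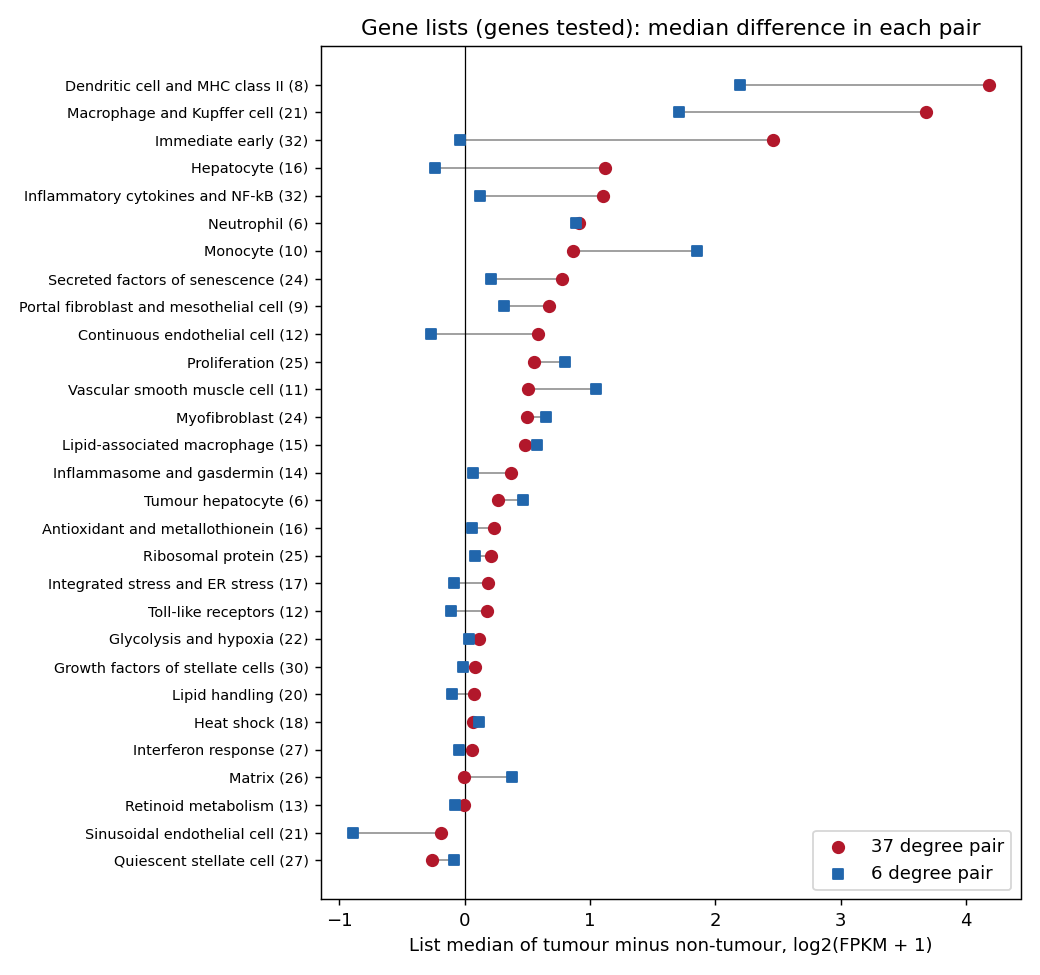
Median tumour minus non-tumour difference of each gene list with at least 6 tested genes, on the log2(FPKM + 1) scale, in the 37 degree pair (red circles) and the 6 degree pair (blue squares), with the number of genes tested in brackets. MHC class II (4.18 and 2.2) and macrophage lists (3.68 and 1.71) lie far right in both pairs, the immediate early list in the warm pair alone (2.46 against -0.04), and the quiescent stellate list near 0.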

How the data were processed

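RNA of sorted hepatic stellate cells was sequenced in 6 libraries, and the authors' deposited values are FPKM for 24346 gene symbols, made with TopHat2 2.1.1, Bowtie2 and Cuffdiff 2.2.1 against mm10, per the submitters' processing notes. The sources used here do not give annotation, strand setting or Cuffdiff's scaling, no counts were used, and 1308 small RNA symbols were left out. Library depth was estimated from the lowest step of the FPKM values of single-transcript genes over 1500 bases, with an assumed fragment length of 180 bases. FPKM keep no count error, so no interval on counts is given.

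The 11558 genes averaging 1 FPKM or more entered limma (version 3.58.1, R 4.3.3) as log2(FPKM + 1). The fit had source and temperature as additive terms over all 6 libraries, an intensity trend and Benjamini-Hochberg adjustment, with 2 residual degrees of freedom (5.37 after moderation). The change of the difference with temperature was tested in a fit with 1 residual degree of freedom (5.32 after moderation). Steps were tested on simulated data. Fold classes need a difference of 1 in the named pair or pairs and, for classes of 1 pair, under 0.5 in the other pair. The comparison, the 32 gene lists and the naming rule were chosen with earlier results of these data known. The rule names the largest called genes, the largest of each class, up to 6 genes of each list and a fixed set of cell markers, 219 in all. The limit of -0.5 between temperatures was chosen after the values were seen. Promoters came from RefSeq (GRCm38.p6), and gene coordinates are GRCm38.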

Additional observations from a re-analysis of the deposited data

Results flagged for a closer look

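For 7 genes the tumour minus non-tumour difference was larger at 37 than at 6 degrees by a test of that change (limma, adjusted p under 0.05). The change on the log2 scale was 4.77 for Fosb, 4.34 for Klf2, 4.31 for Nfkbiz, 3.99 for Klf4, 3.58 for Sertad1, 3.01 for Tyrobp and 2.90 for Ppp1r15a. Tyrobp, a myeloid gene, is the one of these that was higher by at least 1 in both pairs.

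For 8 gene lists the median difference was positive in the 37 degree pair and negative in the 6 degree pair, and that difference was not tested. In 5 of them the 37 degree median was between 0.0611 and 0.186, and the other 3 lie further from 0. The 37 degree medians were 2.46 for immediate early genes, 0.583 for genes of continuous endothelium and 1.12 for hepatocyte genes, and the 6 degree medians were -0.04, -0.265 and -0.234.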

How the results depend on the processing

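Every value rests on 1 library per region and temperature, and deposited FPKM give no count error, so weakly expressed genes limit the fold classes. The 52 genes called higher in tumour became 0 with a pseudocount of 0.1 FPKM, with no filter, with a filter at 5 FPKM, with the normal diet pair left out and with no temperature term. They became 81 with median-ratio rescaling (all 52 among them), 36 with quantile normalization (33 shared) and 67 without the trend (48 shared). Leaving out 1 library in turn gave 0 to 162 higher and 0 to 3 lower, and 37 of the 52 genes were called without the cold tumour library. The lowest adjusted p without the normal diet pair was 0.0556. The 7 genes of the temperature test became 0 without the filter, without the trend and with either rescaling, and this test could not be run without a library, nor were the fold classes recounted then.

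Genes lower at both temperatures numbered 0, against 9 with a pseudocount of 0.1 FPKM and 3 with quantile normalization. Genes lower at 37 degrees alone numbered 18, against 65 with that pseudocount, 7 with a mean of at least 5 FPKM and 1 with a threshold of 1.5. Genes higher at 6 degrees alone numbered 36, against 77 without the filter, 60 with quantile normalization, 15 with a mean of at least 5 FPKM, 9 with a threshold of 1.5 and 10 with a limit of 0.25 in the other pair. Genes lower at 6 degrees alone numbered 49, against 28, 4 and 25 under the last 3 settings in that order. Genes higher at both temperatures numbered 203, against 96 with a mean of at least 5 FPKM and 118 with a threshold of 1.5, and genes higher at 37 degrees alone numbered 194, against 91 with that threshold and 129 with the limit of 0.25. The 37 degree median was 0.375 without the filter for the MHC class II list (4.18) and 0.373 with quantile normalization for the myofibroblast list (0.49). Rescaling shifted the median of all genes by up to 0.0254 and by -0.0512, so the sign of a median as near 0 as -0.02 is not fixed. No difference that passed a test or reached the fold threshold changed sign, while Pygo1 in the cold pair and Prss35 in the warm pair, both near 0, did so with quantile normalization (-0.0619 and -0.256). No paired analysis by replicate number was possible because the labels carry none, and libraries were matched by temperature in the model instead.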

Other observations

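Among the 39 genes higher in tumour at both temperatures and not lower by at least 0.5 at 37 than at 6 degrees within the tumour region, 25 are on no list, and those below were picked after their values were seen. Genes of mural and contractile cells were among them: Pdlim3, a muscle PDZ-LIM protein, was at 3.29 and 4.25 FPKM in the tumour libraries at 37 and 6 degrees, against 0.156 and 0.541 FPKM in the non-tumour libraries. Higd1b, a pericyte gene, was at 3.33 and 1.5 FPKM in the tumour libraries, against 0.204 FPKM in the warm non-tumour library and a listed 0 in the cold one. Serpina3n, a secreted protease inhibitor of injured tissue, was at 25.9 and 21.8 FPKM in the tumour libraries, 10.6 and 8.8 FPKM in the non-tumour libraries and 1.32 and 2.33 FPKM on normal diet. The adjusted p of these 3 genes in limma was 0.102, 0.103 and 0.128, and Pdlim3 and Higd1b were tested only because of their tumour values.

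Leukocyte-associated genes among the 25 were Rgs1, a regulator of G protein signalling, at 49.9 and 35.6 FPKM in the tumour libraries, against 1.14 and 8.26 FPKM in the non-tumour libraries, and Cd83, a marker of activated antigen-presenting cells, at 34.1 and 14.2 FPKM, against 3.03 and 4.39 FPKM in the non-tumour libraries. Ly6c1, the gene of the continuous endothelial list among the 39, was at 16.2 and 20.8 FPKM in the tumour libraries, against 0.167 and 2.66 FPKM in the non-tumour libraries, and its reads may be divided with the near-identical Ly6c2. None of the 3 passed the limma test (adjusted p 0.118, 0.16 and 0.0645), and Ly6c1 was tested only because of its tumour values.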
